A study of Homo sapiens with 12 samples.

Results

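BMP2, BMP4, BMP7, BAMBI, SMAD6, SMAD7, ID1, ID2, ID3, and ID4 were followed over all 12 arrays of a study of β-catenin coactivators in human cells. They comprise ligands of the bone morphogenetic protein (BMP) branch of the TGF-β family, feedback inhibitors of that branch, and the ID genes, which are among its best known targets. Every probe whose RefSeq accession belongs to 1 of these 10 genes was taken, whatever its values, which gave 10 of the 17240 genes named on the array and 13 of its 41000 probes that are not controls. BMP7 had 3 probes, ID2 had 2, and the other 8 genes had 1 each.

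BMP ligands bind pairs of serine/threonine kinase receptors, which phosphorylate SMAD1, SMAD5, and SMAD9. These SMADs enter the nucleus with SMAD4 and activate genes that include the ID genes, SMAD6, SMAD7, and BAMBI. ID proteins pair with basic helix-loop-helix factors and keep them off DNA. In the intestine, BMP signals act mainly on the differentiating epithelium toward the villus, and Wnt signals act on the proliferating cells of the crypt.

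RNA came from Ls174T cells, a colorectal cancer line whose Wnt pathway is always on, and from HEK293T cells, a human embryonic kidney line whose Wnt pathway is intact and can be switched on with Wnt3A. All cells had received 15 nM siRNA for 72 h, a non-target pool in the controls (si-control) and a gene-specific pool otherwise. On 2 arrays, RNA of β-catenin-depleted and si-control Ls174T cells was hybridized together, the second time with exchanged dyes. Per the sample labels the second RNA of this pair was si-control, whereas the study's methods name reference RNA for all arrays, and the labels were followed. Probes under −3 against the reference in si-control cells had a median of −4.28 on the MLLT10/AF10-depleted array and of 0.06 and 0.32 on this pair, where 423 and 259 of 3063 were well-measured. The other 10 arrays set 1 sample each against universal human reference RNA. In Ls174T these were si-control and MLLT10/AF10-, BRG1-, and p300-depleted cells. In HEK293T they were si-control cells given control medium for 9 h, si-control cells given Wnt3A-conditioned medium for 9 h, and cells with siRNA to MLLT10/AF10, DOT1L, BRG1, or p300 that were also given Wnt3A for 9 h. MLLT10/AF10 is the partner of the histone H3K79 methyltransferase DOT1L, BRG1 (SMARCA4) is the ATPase of the SWI/SNF chromatin remodeler, and p300 (EP300) is a histone acetyltransferase. Each condition had 1 biological replicate, and the dye exchange reads the same RNA again, so changes could not be checked against replicate cultures and no p-value was computed.

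The levels below are log2 ratios of sample to reference RNA, and the changes are log2 differences between conditions. A level of 0 equals the reference, so levels can be set side by side for a probe and not between genes. The value after ± is the error that the Feature Extraction program estimates from the signals, combined over the arrays, and it leaves out the spread between cultures. A probe counted as well-measured if, on each array compared, at least 1 channel had a median signal over 2-fold its local background. A gene is said to have risen or fallen only where a well-measured probe passed the study's threshold, which was 2-fold for Ls174T and 1.5-fold (0.585 on the log2 scale) for HEK293T.

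The siRNA targets were lower on the arrays labelled for them. CTNNB1 changed by −2.71 and −2.49 on its 2 probes, MLLT10 by −1.42 in Ls174T and −1.76 in HEK293T, and SMARCA4 by −2.24 to −4.00 over its probes in both lines. EP300 changed by −2.35 in HEK293T on 1 probe. Its other probe there and both its probes in Ls174T read lower too, but the depleted sample or its control was not well above background. Of the DOT1L probes, 2 gave −1.41 and −1.97, and the third gave 0.17. The 12 arrays lay on 5 slides, with 16840 to 28889 probes well-measured per array and the fewest on the β-catenin pair. Of the comparisons with a si-control array, those of β-catenin and of MLLT10/AF10 in Ls174T lay within 1 slide. Every comparison with si-control under Wnt3A, and those of BRG1 and p300 in Ls174T, crossed slides, so slide cannot be told apart from siRNA there, nor from the medium in the comparison of Wnt3A with control medium. The control medium array shared a slide with the MLLT10/AF10- and DOT1L-depleted HEK293T samples. All 9 colorectal epithelium markers were above background on every Ls174T array. In HEK293T, 5 of the 9 were above background on every array and 1 on none. EPCAM stood at 2.44 to 2.70 in Ls174T and at −5.19 to −4.03 in HEK293T. The kidney marker SALL1 was higher in HEK293T, at 0.33 to 0.86, whereas PAX8 and WT1 were higher in Ls174T, and CDX2 was as high in HEK293T as in Ls174T. Of the 3 mesenchyme markers with a probe, COL1A2 and DCN lay at −5.94 or lower on every reference array, and VIM lay at −7.18 to −6.42 in Ls174T and −1.38 to −0.33 in HEK293T.

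The promoters of BAMBI, ID1, ID2, and ID3 are printed first. BAMBI, ID1, and ID3 passed the threshold against a control below, as did BMP2. ID2 did not, but it lay just inside 2-fold after β-catenin depletion. RefSeq sequence (GRCh38.p14) was at hand for 12 start sites of 8 of the 10 genes, and BMP2 and BMP7 had no entry. Each window holds the 250 bases before the start, read 5′ to 3′ on the strand of the gene. BAMBI lies at chr10:28677271-28677520 (plus strand), ID1 at chr20:31605039-31605288 (plus), ID2 at chr2:8681806-8682055 (plus), and ID3 at chr1:23559502-23559751 (minus). Capitals mark GGCGCC, a GC-rich element bound by SMAD1 and SMAD5, CTTTGA, the core of the TCF site, and TGACG, part of the CREB site, on either strand.
BAMBI: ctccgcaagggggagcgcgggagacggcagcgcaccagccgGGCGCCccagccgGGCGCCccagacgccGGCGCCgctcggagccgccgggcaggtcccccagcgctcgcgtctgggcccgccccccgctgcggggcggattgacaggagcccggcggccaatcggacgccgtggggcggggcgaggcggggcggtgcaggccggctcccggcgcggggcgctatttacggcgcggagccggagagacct
ID1: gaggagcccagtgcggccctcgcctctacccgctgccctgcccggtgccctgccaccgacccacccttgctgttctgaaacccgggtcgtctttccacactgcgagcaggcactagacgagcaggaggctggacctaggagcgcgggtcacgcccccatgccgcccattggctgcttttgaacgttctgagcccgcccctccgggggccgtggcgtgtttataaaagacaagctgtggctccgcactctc
ID2: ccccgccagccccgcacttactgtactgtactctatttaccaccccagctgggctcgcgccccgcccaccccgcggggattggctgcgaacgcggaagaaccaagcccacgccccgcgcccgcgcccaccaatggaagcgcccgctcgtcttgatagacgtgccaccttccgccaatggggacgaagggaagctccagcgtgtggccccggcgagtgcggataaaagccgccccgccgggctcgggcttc
ID3: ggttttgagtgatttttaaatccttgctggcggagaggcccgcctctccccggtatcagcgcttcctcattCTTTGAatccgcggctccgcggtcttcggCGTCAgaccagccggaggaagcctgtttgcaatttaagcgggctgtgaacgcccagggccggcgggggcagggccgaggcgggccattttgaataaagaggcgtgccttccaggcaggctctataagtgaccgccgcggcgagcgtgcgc

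BAMBI held 3 copies of GGCGCC, at −209, −196, and −181 from the start, and 81.2% of its window was G or C, compared with a median of 58% over all promoters. The windows of ID1, ID2, and ID3 held no GGCGCC and were 66%, 69.2%, and 62% G or C. ID3 had CTTTGA at −179 and TGACG, read on the other strand as CGTCA, at −150. Of 35116 promoter windows of this length, 16.4% held GGCGCC, 11.2% CTTTGA, and 21.2% TGACG. The short SMAD element GTCT and the E-box CANNTG, which E proteins bind, were also searched on both strands, and 77.5% and 61.8% of all windows held them. GTCT was in all 4 windows and CANNTG was in that of ID2, at −205. These matches describe the letters in the windows and do not show binding.

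Among the ligands, BMP4 was higher in Ls174T and BMP2 in HEK293T. BMP4 stood at 2.45 (si-control), 2.63 (MLLT10/AF10-depleted), 2.48 (BRG1-depleted), and 2.12 (p300-depleted) in Ls174T. In HEK293T it stood at −0.76 in control medium, −0.34 after Wnt3A, and −0.57, −0.51, −0.62, and −0.66 with siRNA to MLLT10/AF10, DOT1L, BRG1, and p300. The lines did not overlap, and the medians differed by −3.06 (HEK293T minus Ls174T). BMP2 was well above background on 6 of 6 HEK293T arrays and on none of the 4 Ls174T arrays, where its signal was 1.32 to 1.40 times the local background. From the sample channels, BMP2 was at least 2.02-fold higher in HEK293T in control medium than in Ls174T si-control cells. BMP7 differed less, and its probes did not share a direction. The medians (HEK293T minus Ls174T) were 1.01 apart for probe A_23_P154643, without overlap, and −0.35 and −0.43 apart for A_23_P68487 and A_24_P91566, with overlap.

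The ID genes differed in opposite directions. ID1 ranged from −0.79 to −0.03 in Ls174T and from −4.84 to −3.47 in HEK293T, and ID3 from 0.70 to 0.76 and from −0.93 to 0.38. Both were higher in Ls174T on every array. ID4 ran the other way, from −1.40 to −0.96 in Ls174T and from 2.75 to 3.10 in HEK293T, and the 2 ID2 probes were higher in HEK293T by 0.51 and 0.54 in the median. BAMBI, a receptor-like protein without a kinase domain that blocks BMP and TGF-β receptors, was below the reference everywhere, at −4.23 to −3.71 in Ls174T and −3.60 to −1.58 in HEK293T. SMAD6 and SMAD7, which block the receptor-activated SMADs, overlapped between the lines. In all, 9 of 13 probes did not overlap between the lines, 6 of them higher in HEK293T and 3 in Ls174T. Of the 24059 probes well-measured on all 10 reference arrays, 57.3% did not overlap, 30.5% higher in HEK293T and 26.8% higher in Ls174T, so such a separation was common.

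**Figure D1:**
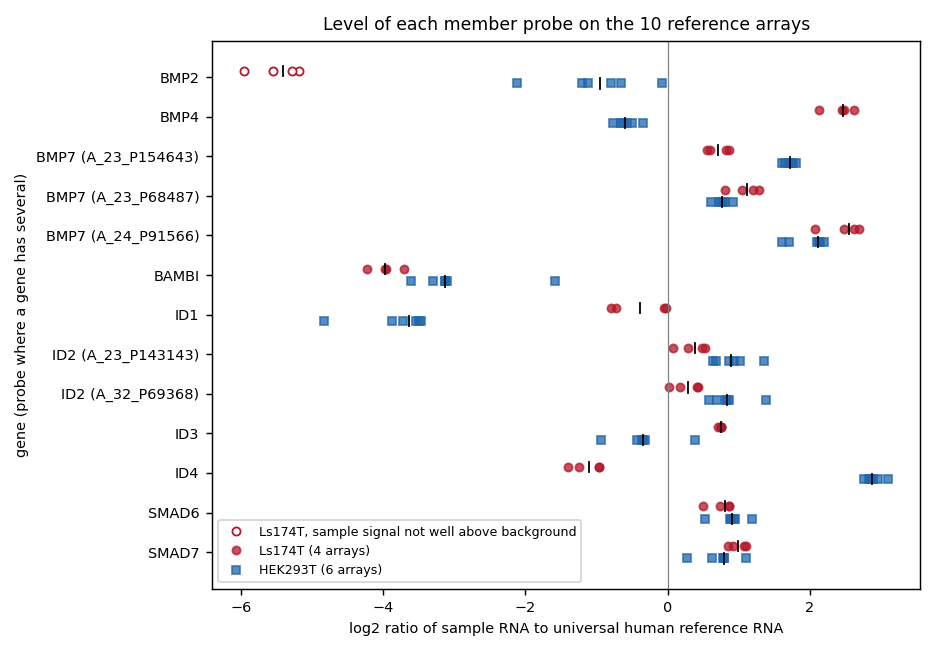
Level of each of the 13 probes as the log2 ratio of sample to universal reference RNA (x axis), with 1 point per array, 4 for Ls174T and 6 for HEK293T, and a black line at the median of each line. BMP4, ID1, and ID3 lie higher in Ls174T, ID4 and BMP2 lie higher in HEK293T, and the open points of BMP2 are Ls174T signals not well above background.

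Depletion of β-catenin asks which of these genes depend on the constitutive Wnt signal of Ls174T cells. ID1 fell and no other of the 9 well-measured probes passed 2-fold. ID1 was −1.75 on the first array and −1.51 on the second, a mean change of −1.63 ± 0.18, or 3.10-fold lower. In bulk RNA, less RNA per cell and fewer expressing cells cannot be told apart. ID3 was −0.96 and −0.91 (mean −0.94 ± 0.16). ID2 was 0.98 and 0.87 on probe A_23_P143143 and 1.09 and 0.85 on A_32_P69368 (means 0.92 ± 0.16 and 0.97 ± 0.16). ID3 and ID2 thus lay just inside 2-fold, ID3 on the side of ID1 and ID2 on the opposite side, and each had the same sign on both arrays. Of all 16514 probes, 5.66% passed 2-fold, 4.48% upward and 1.17% downward. Only 0.303% were as low as ID1 and 1.55% as low as ID3, and 4.73% and 5.13% were as high as the ID2 probes.

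The inhibitors moved little. BAMBI was 0.18 and 0.11, SMAD7 −0.24 and −0.30, and SMAD6 −0.16 and 0.07 on the first and second array. The BMP7 probes A_23_P68487 and A_24_P91566 gave means of −0.17 ± 0.14 and −0.41 ± 0.19, the latter from arrays 0.57 apart, the widest gap among the well-measured probes. BMP4, the ligand with the high level in Ls174T, was well-measured on the first array alone, at −1.33. On the second it read −0.76 with both channels at 1.72 and 1.83 times the local background, so no mean is given. ID4, BMP2, and the BMP7 probe A_23_P154643 were also left without a mean. The median change of the 9 probes was −0.17, and that of all probes was −0.02.

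**Figure D2:**
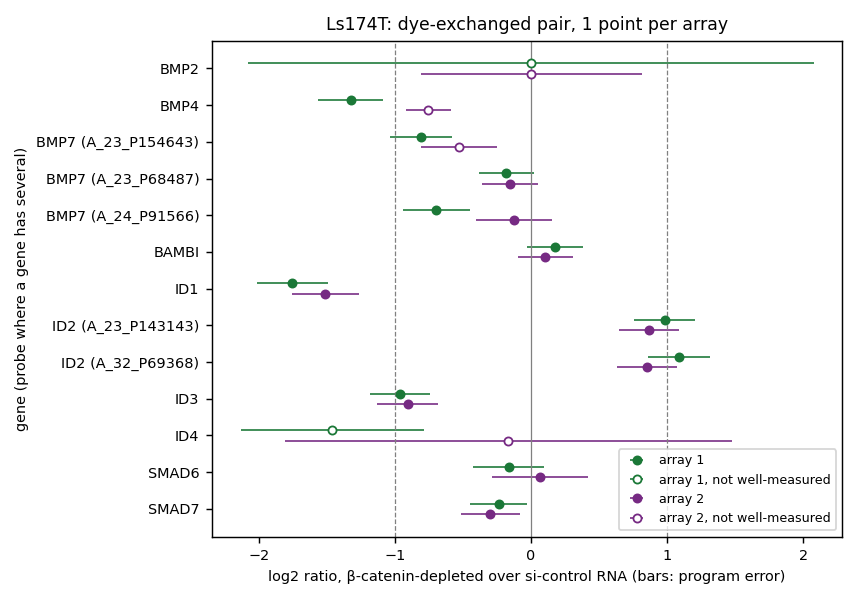
Log2 ratio of β-catenin-depleted to si-control RNA in Ls174T cells (x axis) for each probe, with 1 point per array of the dye-exchanged pair, bars for the program error, open points where the array's signal was not well-measured, and dashed lines at 2-fold. ID1 lies below −1 on both arrays, ID3 and the ID2 probes lie near −1 and 1, and BAMBI, SMAD6, and SMAD7 lie near 0.

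The Ls174T knockdowns of the coactivators ask whether the genes that follow β-catenin also follow its partners. After depletion of MLLT10/AF10, read on the same slide as si-control, 0 of 13 probes passed 2-fold (1.75% of all probes did), and their changes ran from −0.15 (ID4) to 0.25 (BAMBI and the ID2 probe A_32_P69368). ID1 stood at −0.79 in si-control and −0.72 in MLLT10/AF10-depleted cells, a change of 0.07 ± 0.30. No member differed by more than its program error. After depletion of BRG1, 0 of 13 probes passed 2-fold, compared with 5.21% of all probes, and after depletion of p300, 0 of 13 compared with 5.76%.

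Among probes with sample signal well above background, ID1 gave the widest change in both. It stood at −0.05 in BRG1-depleted and −0.03 in p300-depleted cells, above both other arrays, which gave changes of 0.74 ± 0.30 and 0.77 ± 0.30. These 2 arrays shared a slide that held neither of the others, and ID1 differed between them by −0.02 ± 0.29. Of 9 colorectal epithelial markers, 8 (all but EPCAM) were lower on the same 2 arrays than on both others. Any difference counted, and CDX2 read 4.256 after BRG1 and 4.261 after MLLT10/AF10 depletion. The share of all probes that lay lower in this way was not computed. KRT20, a keratin of differentiated epithelium, moved most, with 4.41 in si-control, 4.82 in MLLT10/AF10-depleted, 2.20 in BRG1-depleted, and 1.12 in p300-depleted cells. The part of these markers in the ID1 values was not tested. After p300 depletion all 3 BMP7 probes read below si-control, by −0.32 ± 0.30, −0.39 ± 0.32, and −0.62 ± 0.43, and BMP4 read −0.33 ± 0.42. ID3 was at 0.70, 0.76, 0.75, and 0.74 over the 4 arrays, a range of 0.06. Set against each other on their slide, the BRG1- and p300-depleted cells differed by 2-fold for 0 of 13 probes (2.34% of all), with changes from −0.45 (ID2, A_23_P143143) to 0.41 (BMP7, A_24_P91566).

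**Figure D3:**
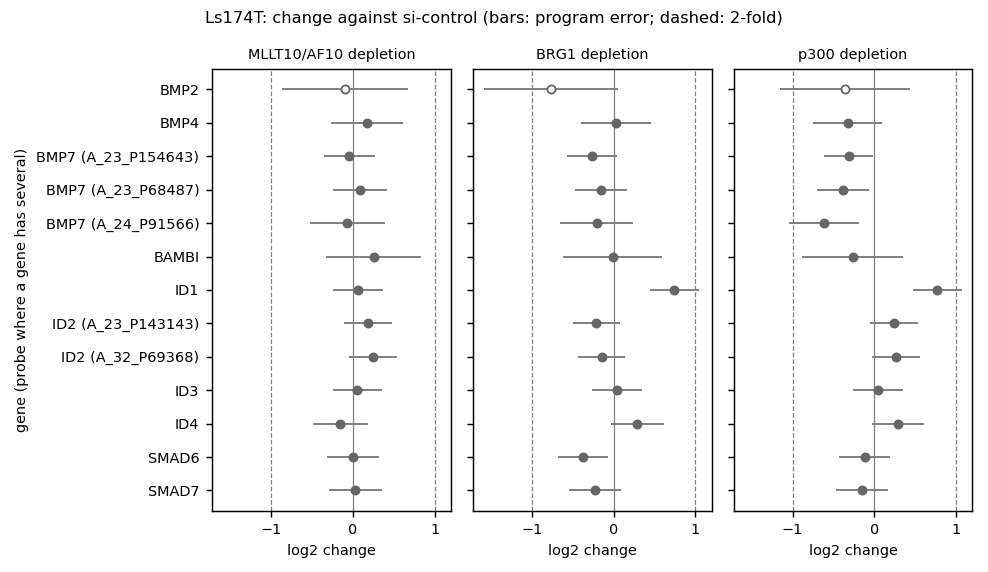
Log2 change against si-control in Ls174T cells (x axis) for each probe after depletion of MLLT10/AF10, BRG1, and p300, with bars for the program error, dashed lines at 2-fold, and an open point where the sample signal was not well above background. No point passes 2-fold, and ID1 reads 0.74 and 0.77 after BRG1 and p300 depletion.

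In HEK293T cells, Wnt3A for 9 h passed none of the 13 probes across 1.5-fold, compared with 6.54% of all probes. BMP4 gave the widest change, 0.42 ± 0.30, followed by ID1 with 0.38 ± 0.57 and ID4 with −0.21 ± 0.47. ID2, ID3, SMAD6, and SMAD7 lay between −0.04 and 0.09. Depletion of MLLT10/AF10 or DOT1L under Wnt3A also passed none, compared with 7.32% and 5.63% of all probes. These counts of 0 depended on the processing. With normexp background correction and loess in place of the program's correction, BAMBI passed after both depletions (0.75 and 0.68, from −0.02 and −0.03) and turned from 0.19 to −0.53 for Wnt3A. With that processing 1.60% and 1.23% of all probes passed after the depletions. In the sample channel alone, BMP2 passed after both depletions (0.86 and 0.92), as did a BMP7 probe (A_23_P68487, 0.71) for Wnt3A. In that channel 17.3% and 15.5% of all probes passed after the depletions and 20.1% for Wnt3A. There 1 of 13 lay below the share of all probes. The widest values were 0.44 ± 0.39 for 1 of the 3 BMP7 probes (A_24_P91566) after MLLT10/AF10 depletion, where the other BMP7 probes gave 0.08 and 0.07, and 0.45 ± 0.31 for BMP2 after DOT1L depletion. The MLLT10/AF10- and DOT1L-depleted arrays shared a slide with the control medium array, and against that array too 0 probes passed (7.74% and 5.76% of all). Between the 2 depletions the 13 probes differed by 0.19 or less in either direction, and 3.63% of all probes passed 1.5-fold.

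Depletion of BRG1 under Wnt3A raised BAMBI, BMP2, and ID3. BAMBI stood at −3.29, −3.11, −3.12, and −3.14 in control medium, in si-control with Wnt3A, and after MLLT10/AF10 and DOT1L depletion, and at −1.58 after BRG1 depletion, a change of 1.52 ± 0.43 against si-control, or 2.88-fold. Only 0.456% of all probes rose as far. BMP2 went from −1.11 to −0.08 (1.03 ± 0.31) and ID3 from −0.31 to 0.38 (0.69 ± 0.29). The 3 calls of 13 have to be read against a background in which 22% of all 26115 probes passed 1.5-fold. Of all probes 10.4% rose and 11.7% fell, and of these 13 probes 23.1% rose. With normexp and loess, BMP2 read 0.55, inside 1.5-fold, and BAMBI 2.20, where BAMBI also passed after MLLT10/AF10 and DOT1L depletion. The ID2 probes read 0.33 ± 0.33 and 0.51 ± 0.32, SMAD7 0.30 ± 0.31, SMAD6 0.29 ± 0.32, and ID1 0.03 ± 0.54.

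Depletion of p300 lowered ID1, BMP2, and ID3. ID1 stood at −3.88, −3.50, −3.73, −3.53, and −3.47 on the other HEK293T arrays and at −4.84 after p300 depletion, a change of −1.34 ± 0.63 against si-control, or 2.53-fold lower, and 1.62% of all probes fell as far. BMP2 fell by 1.00 ± 0.37, to −2.12, and ID3 changed by −0.62 ± 0.30, to −0.93. Of all 25872 probes 12.1% passed 1.5-fold and 7.9% fell, whereas 23.1% of these probes fell and none rose. In the sample channel alone, BMP2 read −0.51 and ID3 −0.51, both inside 1.5-fold, and SMAD7 −0.71. Just inside the threshold were SMAD7 at −0.52 ± 0.30 and BAMBI at −0.50 ± 0.53. BAMBI turned to 0.21 with normexp and loess. SMAD6 read −0.37 ± 0.31, the ID2 probes −0.38 ± 0.31 and −0.29 ± 0.30, and ID4 0.10 ± 0.47.

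**Figure D4:**
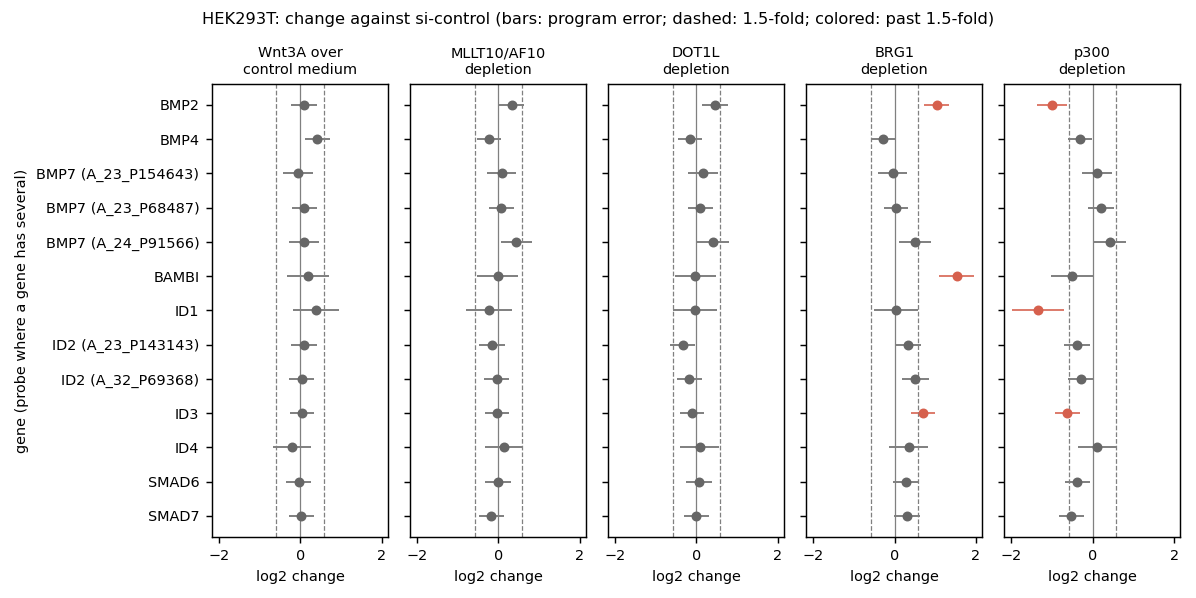
Log2 change in HEK293T cells (x axis) for each probe, for Wnt3A over control medium and for each depletion over si-control under Wnt3A, with bars for the program error and dashed lines at 1.5-fold. The colored points passed 1.5-fold: BMP2, BAMBI, and ID3 rose after BRG1 depletion, and BMP2, ID1, and ID3 fell after p300 depletion.

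The BRG1- and p300-depleted HEK293T samples were read on 1 slide, so they could be compared without the si-control array. The comparison was chosen after these values were known. Between them 8 of 13 probes passed 1.5-fold, all higher after BRG1 than after p300 depletion, and 20.2% of all 25506 probes passed. Of all probes 10.6% were higher after BRG1 and 9.68% higher after p300 depletion. BMP2 differed by 2.04 ± 0.35, BAMBI by 2.02 ± 0.47, ID1 by 1.37 ± 0.63, and ID3 by 1.31 ± 0.30. SMAD7 differed by 0.82 ± 0.31, the ID2 probes by 0.72 ± 0.32 and 0.80 ± 0.32, and SMAD6 by 0.66 ± 0.31. These are the pseudoreceptor, both inhibitory SMADs, 3 of the 4 ID genes, and 1 ligand. BMP4 (0.03), the BMP7 probes (−0.17 to 0.08), and ID4 (0.25 ± 0.49) lay within their errors. The median difference was 0.72 for the 13 probes and −0.00 for all probes.

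The same 8 probes lay above the other 4 HEK293T arrays after BRG1 depletion and below them after p300 depletion. SMAD7, for example, was at 0.78 in control medium, 0.80 in si-control with Wnt3A, 0.62 and 0.80 in MLLT10/AF10- and DOT1L-depleted cells, 1.10 in BRG1-depleted cells, and 0.28 in p300-depleted cells. SMAD6 was at 0.93, 0.89, 0.88, 0.95, 1.18, and 0.52 in the same order. ID3 was at −0.36, −0.31, −0.34, −0.43, 0.38, and −0.93. For ID1 the BRG1-depleted sample (−3.47) was barely above the next array (−3.50), and only the p300-depleted sample stood apart. Of 25056 probes well-measured on all 6 arrays, 7.21% showed this pattern and 7.44% the opposite one, which 0 of the 13 probes showed. The pattern was read with the program's correction alone. With normexp and loess, BAMBI after p300 depletion read 0.21 against si-control with Wnt3A, so it was not below all 4 other arrays. In Ls174T the same pair of depletions differed by −0.07 ± 0.31 for SMAD7, −0.25 ± 0.30 for SMAD6, 0.00 ± 0.30 for ID3, and 0.25 ± 0.62 for BAMBI. Whether the lines differ in this was not tested.

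**Figure D5:**
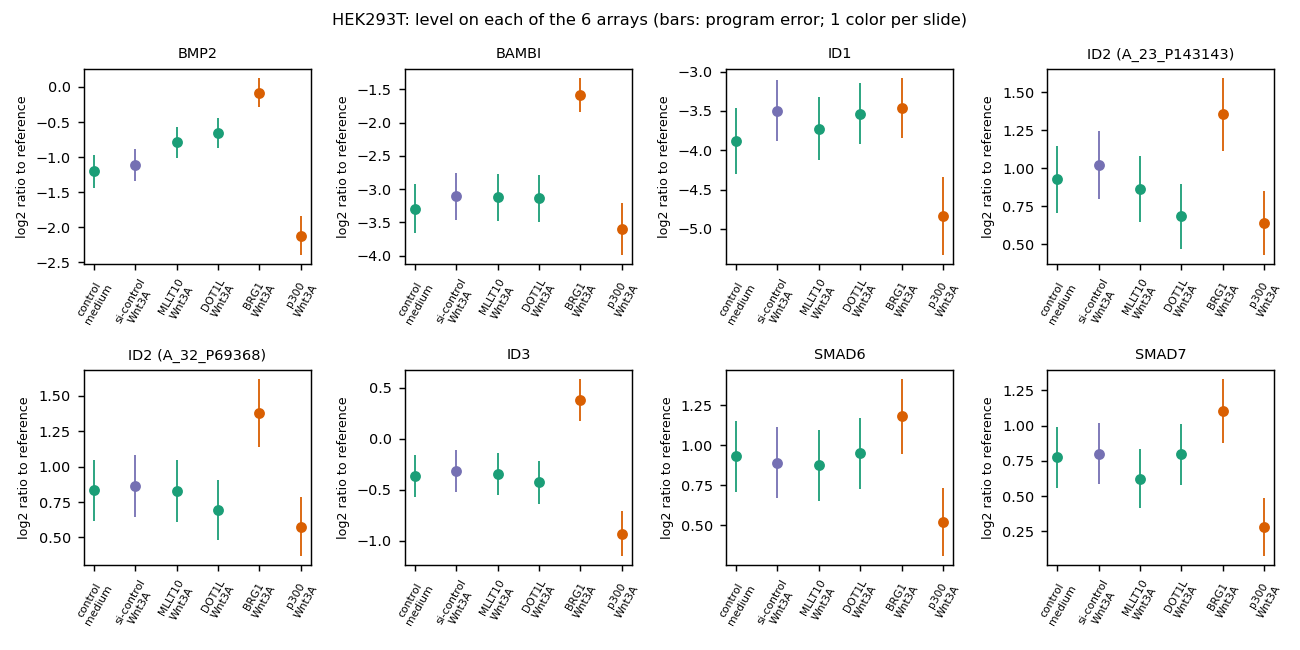
Log2 ratio to reference RNA (y axis, a separate range for each panel) of the 8 probes on each of the 6 HEK293T arrays, with bars for the program error and 1 color per slide. In every panel the BRG1-depleted sample is the highest and the p300-depleted sample the lowest, by a narrow margin at the top for ID1 and at the bottom for ID2 probe A_23_P143143.

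The other genes of the pathway were taken from a list of 88 ligands, receptors, SMADs, antagonists, regulators, further targets, E proteins, and TGF-β genes, of which 87 had a probe (140 probes). After β-catenin depletion 1 of 45 well-measured probes rose and 2 fell (4.48% and 1.17% of all probes). RGMB, a BMP co-receptor (−2.03 ± 0.20), and SMAD9, a receptor-activated SMAD of the BMP branch (−1.86 ± 0.20), fell. TOB1, an antiproliferative protein that binds SMADs (1.16 ± 0.16), rose. In Ls174T, 1 of 96 rose with siRNA to MLLT10/AF10 (0.756% of all probes rose and 0.996% fell), 1 of 100 with siRNA to BRG1 (3.75% and 1.46%), and 5 of 100 with siRNA to p300 (4.09% and 1.67%). None of them fell. TGFB2 (1.81 ± 0.36) and TGFB3 (1.00 ± 0.35), both TGF-β ligands, were the risers after p300 depletion with signal well above background on all their probes.

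In HEK293T, Wnt3A raised 5 of 101 probes and lowered 6 (3.77% and 2.77% of all probes). Depletion of MLLT10/AF10 raised 4 of 99 and lowered 3 (3.51% and 3.81% of all), and that of DOT1L raised 4 of 102 and lowered 2 (2.1% and 3.54%). With Wnt3A, TGFB1 (0.87 ± 0.09), GDF10 (0.95 ± 0.32), BMP6 (0.65 ± 0.29), NBL1 (0.63 ± 0.29), and ENG, a TGF-β and BMP co-receptor (0.93 ± 0.38), rose. The receptor BMPR1B (−1.27 ± 0.48 and −1.07 ± 0.65 on its 2 probes), TGFBR1 (−0.66 ± 0.37), and SMAD5 (−0.63 ± 0.32) fell with Wnt3A. ENG and TGFB1 fell after MLLT10/AF10 depletion (−0.62 ± 0.36 and −0.66 ± 0.09), where BMPR1B rose on both probes (1.35 ± 0.49 and 0.62 ± 0.64). ENG also fell after DOT1L depletion (−1.06 ± 0.38), and GDF10 rose there (0.74 ± 0.33). Wnt3A and the depletions share the si-control array, which enters them with opposite signs. Against the control medium array, GDF10 was higher by 0.84 ± 0.33 and 1.69 ± 0.34 in the MLLT10/AF10- and DOT1L-depleted samples, and BMP6 by 0.83 ± 0.29 and 0.77 ± 0.29. ENG and TGFB1 did not pass 1.5-fold against that array in either sample. BMPR1B did not pass on both probes in the MLLT10/AF10-depleted sample.

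After BRG1 depletion 12 of 101 pathway probes rose and 9 fell (10.4% and 11.7% of all probes), and after p300 depletion 5 of 100 rose and 14 fell (4.17% and 7.9%). Among others, BRG1 depletion raised the antagonist SOSTDC1 (0.81 ± 0.31), TGFB3 (1.08 ± 0.33), SMAD5 (0.84 ± 0.33), and the activin subunit INHBA (0.79 ± 0.36). It lowered TGFB1 (−1.26 ± 0.10), GDF11 (−1.25 ± 0.30), GDF10 (−1.03 ± 0.32), the receptor ACVRL1 (−1.25 ± 0.35), and ENG (−1.75 ± 0.43). The BMP-responsive gene HAMP fell as well (−0.98 ± 0.59). p300 depletion lowered ACVRL1 (−1.60 ± 0.37), ENG (−1.26 ± 0.40), and TGFB1 (−0.80 ± 0.09) as well. It also lowered INHBA (−1.49 ± 0.48), the BMP target MSX2 (−1.15 ± 0.38), FSTL1 (−0.98 ± 0.38), and SMAD3 (−0.68 ± 0.11). SOSTDC1 (1.04 ± 0.32) and TGFBR1 (0.95 ± 0.39) rose after p300 depletion. ENG, TGFB1, GDF10, SMAD5, and TGFBR1 had moved the opposite way with Wnt3A, and these comparisons share its si-control array. Changes against the control medium array were not computed for the BRG1- and p300-depleted samples.

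Between the BRG1- and p300-depleted HEK293T samples, 21 of 100 pathway probes (21%) were higher after BRG1 depletion and 8 lower, compared with 10.6% and 9.68% of all probes. The list's median was 0.16. INHBA (2.27 ± 0.45), MSX2 (1.57 ± 0.41), TGFB3 (1.37 ± 0.33), and the E protein gene TCF4 (0.87 ± 0.30 and 1.14 ± 0.32), which is not the Wnt effector TCF7L2 also called TCF4, were higher. The corepressor genes TGIF1 (0.88 ± 0.36) and SKIL (0.76 ± 0.31) and the antagonists NOG (0.80 ± 0.34) and CHRD (0.70 ± 0.29) were higher as well. GDF10 (−1.34 ± 0.33), GDF11 (−1.16 ± 0.30), BMP6 (−0.70 ± 0.29), and HAMP (−0.62 ± 0.61) were lower. MSX2 and HAMP belong to the further BMP-responsive genes of the list. Of the 16 well-measured probes of those genes, 4 were higher and 2 lower.

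Over the 10 reference arrays, with each line centered on its own mean, SMAD6 and SMAD7 were close to each other (Pearson r = 0.947), as were BAMBI and ID3 (0.917), ID3 and SMAD7 (0.880), and the 2 ID2 probes (0.975). Among 21167 probes with signal well above background on all 10, the gene nearest to both SMAD6 (0.981) and SMAD7 (0.962) was ARIH2. The nearest genes were TRMT6 (0.977) and EIF3D (0.973) for BAMBI, NEDD4L (0.968) and PLEKHO1 (0.949) for ID1, TOP3A (0.969) and CUL3 (0.967) for ID3, S100A11 (0.957) and GPRC5A (0.940) for BMP4, and RNF19A (0.966) and SAYSD1 (0.956) for ID4. For the ID2 probes they were PCP2 (0.940) and EIF4H (0.939), and CAPRIN2 (0.958) and PIGH (0.950). The 3 BMP7 probes had different neighbors, KRTAP2-1 (0.979), VPS33A (0.967), and WDR36 (0.995) first, and BMP2 was not ranked since it was dim in Ls174T. The points share slides and reference RNA, few arrays carry most of the spread, and the highest of so many coefficients is high by selection, so these values are descriptions.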

How the data were processed

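RNA was read on 12 Agilent 4x44K human arrays with both dyes. The authors deposited intensities of each channel (median signal, local background, and processed signal), which the Feature Extraction program had corrected for background and dye. The deposited log10 ratios are Cy5 over Cy3. The file headers give program version 10.5.1.1 and the submitters' processing notes 8.5.1.1, so the version is not settled. The deposited table of values holds the same log10 ratios to within 1.50e-05 on the log2 scale, with the pair already turned.

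Here the ratios were put on the log2 scale with the sample, or the β-catenin-depleted RNA, as numerator, the pair was averaged, and the other changes are differences between arrays. Spots marked as outliers were left out. Counts are of probes. RefSeq named 25398 of 26278 probes with a RefSeq accession (96.7%). The genes, lists, and comparisons were chosen with earlier results of these data known. Genes named are all members, the siRNA targets, genes of the pathway lists past the threshold on every well-measured probe with sample signal well above background, and the 2 genes nearest to each member. Some genes that this rule names are not reported here. The single-gene examples and the pattern over the 6 HEK293T arrays were picked after their values were seen. In the bound for BMP2, channels were normalized by loess and Aquantile, and the lowest signal well above background served as a floor. The Ls174T signal (6.78 on the log2 scale) lay above this floor (6.27), so that signal set the bound. Alternatives were normexp (offset 50) with loess in limma 3.58.1 (R 4.3.3), the deposited table, the sample channel scaled to its 75th percentile, other filters and folds, another control array, and single arrays of the pair. Python 3.11.15 and pandas 2.3.3 were used, and the steps were tested on simulated data. With 1 array per condition, the number of arrays limits precision.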

Additional observations from a re-analysis of the deposited data

Results flagged for a closer look

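After p300 depletion, ID1 read 0.77 against si-control in Ls174T cells and −1.34 in HEK293T cells. The BMP7 probe A_24_P91566 read −0.62 in Ls174T and 0.42 in HEK293T cells. The other BMP7 probes read −0.32 and −0.39 in Ls174T, and 0.12 ± 0.36 and 0.21 ± 0.31 in HEK293T cells, the latter within their errors. ID1 and A_24_P91566 were picked out because the lines moved in opposite directions by more than the program error. With 1 array per condition the difference between the lines was not tested. All 4 comparisons behind these values crossed slides. The ID1 value of 0.77 in Ls174T cells was nearly the same as that after BRG1 depletion (0.74), which was read on the same slide. In HEK293T cells, A_24_P91566 also read 0.44, 0.40, and 0.50 after MLLT10/AF10, DOT1L, and BRG1 depletion, so its 0.42 was not particular to p300 depletion.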

How the results depend on the processing

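No paired analysis was possible because each condition has 1 sample, and the β-catenin pair is a dye exchange of the same RNA. Of 87 counts of probes past the threshold recomputed under an alternative, 75 stayed within 1.5 times the count given above and 12 did not. The deposited table, the filters, and the outlier spots left all 600 single changes recomputed with them identical (to 0.0001), since these settings only admit or drop a probe or repeat the same ratios. Of the changes under the other alternatives, 307 moved by less than their program error and 32 by more, 18 of 143 in the sample channel alone and 10 of 152 with normexp and loess. No called change turned its direction. After β-catenin depletion the count of 1 became 2 without the filter on dim probes, where BMP4 was added (4.07% of all probes passed). It became 4 of 9 with the 1.5-fold threshold, where 17.3% of all probes passed. Without the first array of the pair it stayed at 1 (7.08% of all). Without the second array it was 3 (5.93% of all), where BMP4 (−1.33) and ID2 probe A_32_P69368 (1.09) were added to ID1. In Ls174T, 1.5-fold in place of 2-fold gave 2 probes after BRG1 depletion and 2 after p300 depletion, where none had passed. Of all probes 12.6% and 14.9% passed there, so these 2 of 13 lay near the share of all probes. The sample channel alone gave 1 after BRG1 depletion (10.9% of all), the dim BMP2. In HEK293T the sample channel alone gave 1 probe for Wnt3A and 1 each after MLLT10/AF10 and DOT1L depletion, where none had passed. Of all probes 20.1%, 17.3%, and 15.5% passed there. Normexp with loess gave 1 each after MLLT10/AF10 and DOT1L depletion (1.60% and 1.23% of all), in both BAMBI (0.75 and 0.68). Between BRG1- and p300-depleted HEK293T cells, 8 probes became 4 with 2-fold (5.74% of all probes). The sample channel alone also gave 8 there (25.2% of all), of which 7 were higher and 1, a BMP7 probe, was lower (−0.63). In that channel ID2 probe A_32_P69368 dropped to 0.36. The cause was not tested. Low signal limited BMP2 in Ls174T and 4 probes on the β-catenin pair.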
